A study of Mus musculus with 10 samples.

Results

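The endoplasmic reticulum (ER) is shaped and renewed by a small group of membrane proteins, and 10 of their genes are described here in primary mouse hippocampal neurons under ER stress. They are the ER-phagy receptors Retreg1, Retreg2, Retreg3, Ccpg1 and Tex264, the reticulons Rtn3 and Rtn4, and the atlastins Atl1, Atl2 and Atl3. The genes were chosen by name for their function in ER shape and ER turnover, and all 10 were found among the 48709 Ensembl gene identifiers of the count tables. Tunicamycin, a drug that stops proteins from being glycosylated in the ER and so makes them misfold there, was given at 2 ug/mL for 6 h to neurons on day 10 in culture. The other cultures received its solvent, DMSO, for the same time. There were 6 tunicamycin libraries and 4 DMSO libraries of polyadenylated RNA. All cells were from mouse hippocampus, and no genotype, strain or age of the animals is given in the sources used here.

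The ER of a neuron runs as thin tubules into dendrites and axons and as flattened sheets in the cell body. Reticulons bend the membrane with a hairpin domain, and atlastins are GTPases that fuse tubules into a network. In ER-phagy, pieces of the ER are taken into autophagosomes by receptors that sit in the ER membrane and bind proteins of the ATG8 family. Retreg1 (also named Fam134b) was described as a receptor for ER sheets, the long isoform of Rtn3 as a receptor for ER tubules, and Ccpg1 as a receptor whose transcript is induced by ER stress in human and mouse cells. In humans, mutations of RETREG1 cause a sensory neuropathy, and mutations of ATL1 and ATL3 cause spastic paraplegia and sensory neuropathy.

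Each library held 21055289 to 29234887 counts on genes, with 22182 to 23651 genes detected. The treatment was visible in all 5 ER stress reference genes. Hspa5, which encodes the chaperone BiP, had 3211 ± 150 CPM (counts scaled to a library total of 1000000, SD, n = 6) with tunicamycin and 613 ± 44.6 CPM (n = 4) with DMSO. The stress factors Ddit3, Atf4 and Xbp1 and the degradation factor Herpud1 were also higher, with log2 fold changes of 2.93, 1.39, 1.29 and 2.92 over DMSO (highest edgeR adjusted p of the 5 genes 4.18e-18). The exons of Ddit3 overlap another gene over 10.9% of their bases, so its count may hold reads of both. Neuronal markers were abundant, and the cultures also held glia. The 9 neuronal markers summed to 6010 to 6339 CPM with tunicamycin and to 7170 to 7679 CPM with DMSO. The 8 astrocyte markers summed to 2097 to 2328 CPM with tunicamycin and to 3012 to 3387 CPM with DMSO. No marker of the 5 cell type lists was at 0 in every library.

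Tunicamycin lowered 6 of the 10 genes and raised 1, by amounts that ranged from 7.3% to 34.3%. Retreg3 and Atl1 fell most, by 34.3% and 33.9%, Rtn3, Atl3, Rtn4 and Retreg2 fell less, and Atl2 was the only one of the 10 that rose, by 8.45%, a rise that was not called under upper-quartile scaling (log2 0.00). Retreg1, Tex264 and Ccpg1 did not pass the test (edgeR's quasi-likelihood test, with p-values adjusted over all 15660 tested genes and a threshold of 0.05). Of all tested genes, 64.3% passed, 31.8% higher and 32.5% lower with tunicamycin, so that 7 of 10 is near the share in the transcriptome at large. The median log2 fold change was -0.13 over the 10 genes and -0.02 over all tested genes. For 6 of the 10 genes, Retreg3, Rtn3, Rtn4, Atl1, Atl2 and Atl3, the ranges of the groups did not overlap in CPM, which held for 50.9% of all tested genes. Because the RNA came from whole cultures, fewer cells of a type and less RNA per cell cannot be told apart.

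**Figure D1:**
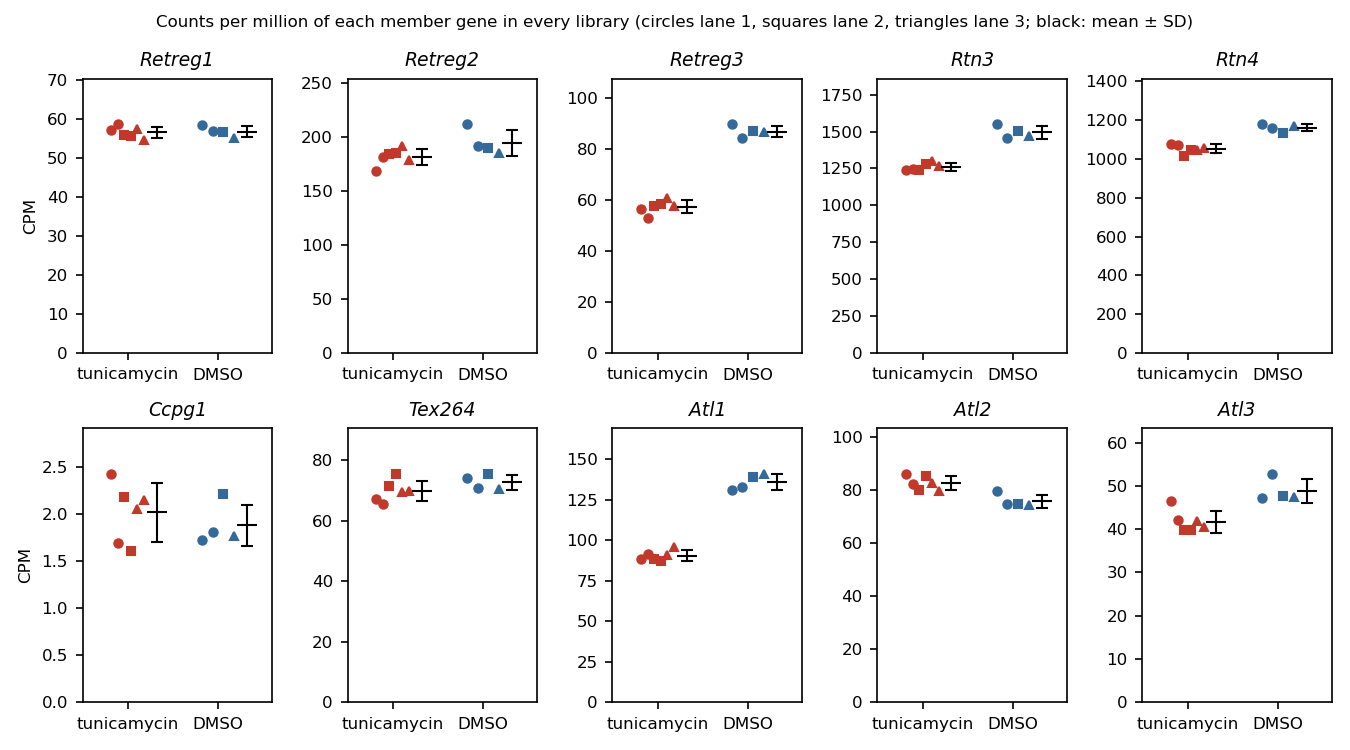
Level of each of the 10 genes in every library, in CPM on a linear axis of its own for each gene, with tunicamycin (6 points) left of DMSO (4 points). Symbols mark the sequencing lane as read from the library names, which was not checked (circles, squares and triangles for lanes 1, 2 and 3). Black bars show mean ± SD. Retreg3 and Atl1 show a wide gap below the DMSO libraries (57.4 and 86.8 CPM on average for Retreg3), Atl2 lies just above them on this scale of library totals, and the groups overlap for Retreg1, Retreg2, Tex264 and Ccpg1.

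Compared per length of all annotated exons of a gene, reticulons made up most of the RNA of these genes. How the order depends on this choice of length was not tested. In TPM (counts divided by exon length and scaled to the same total), the order with tunicamycin was Rtn3 (1071 ± 19.1), Rtn4 (642 ± 14.9), Retreg2 (258 ± 9.97), Tex264 (104 ± 5.06), Retreg3 (68.2 ± 2.94), Retreg1 (58.2 ± 1.61), Atl1 (42.0 ± 1.31), Atl2 (35.9 ± 1.31), Atl3 (17.6 ± 1.17) and Ccpg1 (1.15 ± 0.183; SD, n = 6). With tunicamycin no neighbours in this order overlapped over the libraries. The place of Ccpg1 is uncertain, since only 6 of its 2460 coding bases lie in no other gene. With DMSO, Tex264 (101 ± 3.32 TPM) and Retreg3 (96.7 ± 2.41 TPM) overlapped, and Atl1 (59.2 ± 1.5 TPM) stood above Retreg1 (54.7 ± 1.67 TPM; SD, n = 4). Retreg1 and Atl1 thus stood in opposite order with tunicamycin and with DMSO.

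Among the RETREG receptors, in the edgeR test, 1 gene fell strongly, 1 fell slightly and 1 did not pass. Retreg1 (ENSMUSG00000022270, chromosome 15, 25843180 to 25973687, GRCm38, forward strand) encodes the founding member of the family, which clusters in ER membranes and clips off sheets. Its level had a lowest, median and highest value of 54.5, 56.4 and 58.6 CPM with tunicamycin, and of 58.3, 56.9, 56.5 and 55 CPM in the 4 DMSO libraries. The groups lay on top of each other. Its log2 fold change of -0.01 ± 0.03 (SE) did not pass (adjusted p = 0.763 in edgeR), with a 95% interval from -0.08 to 0.06, and 97.4% of all tested genes had a larger change in either direction.

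Retreg2 (ENSMUSG00000049339, chromosome 1, 75142778 to 75147913, forward strand) encodes a close relative with the same hairpin domain and was the most abundant of the 3. It measured 169, 183 and 192 CPM (lowest, median, highest) with tunicamycin, and 212, 192, 190 and 185 CPM with DMSO. In TPM the means were nearly equal, at 258 ± 9.97 with tunicamycin and 260 ± 16.8 with DMSO (SD). The first DMSO library was above all others and the rest overlapped. The small fall (log2 -0.11 ± 0.04, edgeR adjusted p = 0.0143) rested on that library: without DMSO replicate 1 it was -0.07 and the call was lost (edgeR adjusted p = 0.0859). Sequencing lanes, here and below, are a reading of the library names that was not checked. Within lanes 1, 2 and 3 the log2 fold change of Retreg2 was -0.20, -0.06 and -0.01. DMSO replicate 3 was the only DMSO library of lane 2, and DMSO replicate 4 that of lane 3, here and below.

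Retreg3 (ENSMUSG00000017802, chromosome 11, 101096322 to 101119893, reverse strand) encodes the relative also named Fam134c. It measured 53.1, 57.7 and 60.6 CPM (lowest, median, highest) with tunicamycin, and 89.7, 84.2, 87 and 86.5 CPM with DMSO. Every tunicamycin library was far below every DMSO library. On the log2 scale the change was -0.61 ± 0.04 (edgeR adjusted p = 2.58e-12), with a 95% interval from -0.68 to -0.53, and it was -0.66, -0.61 and -0.55 within lanes 1, 2 and 3. Only 16.4% of all tested genes had a larger change in either direction.

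The balance between the RETREG genes shifted accordingly. A ratio of counts of a gene pair in the same library does not depend on library scaling, so it tests whether the genes responded unequally. The log2 ratio of Retreg1 to Retreg3 averaged -0.02 ± 0.09 with tunicamycin (SD, n = 6) and -0.62 ± 0.04 with DMSO (n = 4), a difference of 0.59 or 1.51-fold (two-sided exact permutation test over 210 splits, p = 0.00476, adjusted over 7 pairs 0.00667). This is the smallest p the design allows. The ratio of Retreg2 to Retreg3 was 1.41 times as high with tunicamycin as with DMSO, with the same p. Retreg1 and Retreg2 differed less: their log2 ratio averaged -1.68 with tunicamycin and -1.78 with DMSO, a difference of 0.10 (exact permutation p = 0.0286, adjusted 0.0286). That pair missed the threshold when libraries were exchanged only within lanes (exact permutation, adjusted p = 0.0741) and when any 1 of the 4 DMSO libraries was left out (exact permutation, adjusted p up to 0.0952). Retreg3 supplied 17.7% ± 0.628 of the RETREG transcripts, by TPM, with tunicamycin (SD, n = 6) and 23.5% ± 0.709 with DMSO (SD, n = 4). Retreg2 supplied 67.2% ± 0.768 with tunicamycin and 63.2% ± 0.936 with DMSO, and Retreg1 15.1% ± 0.612 with tunicamycin and 13.3% ± 0.326 with DMSO.

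**Figure D2:**
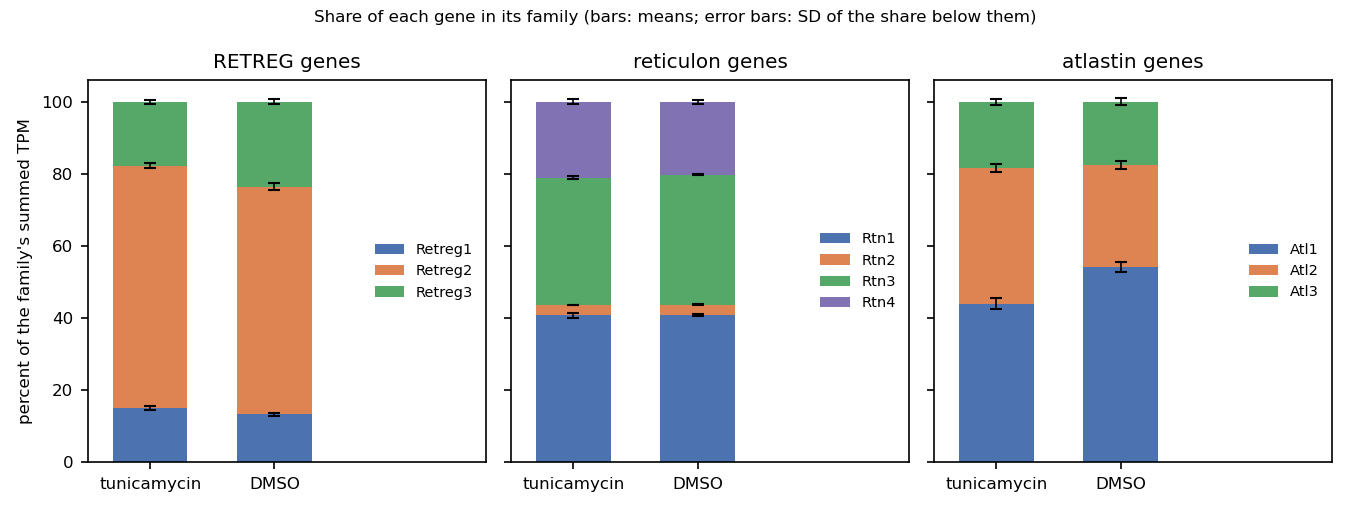
Share of each gene in the summed TPM of its family (percent, stacked bars of the group means, with the SD of each share as an error bar at its upper edge), for the RETREG genes, the reticulons with Rtn1 and Rtn2, and the atlastins, with tunicamycin left of DMSO in each panel. The reticulon shares look alike in both bars, while Retreg3 (17.7% with tunicamycin and 23.5% with DMSO) and Atl1 (44.0% with tunicamycin and 54.2% with DMSO) take smaller shares with tunicamycin.

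The other receptors, Tex264 and Ccpg1, did not pass the test. Tex264 (ENSMUSG00000040813, chromosome 9, 106658746 to 106685927, reverse strand) encodes a receptor anchored in the ER membrane by a single segment. It measured 65.6, 69.7 and 75.4 CPM (lowest, median, highest) with tunicamycin, and 74.3, 70.8, 75.6 and 70.7 CPM with DMSO. The groups overlapped, and the lowest libraries were tunicamycin ones. Between the group means the log2 difference was -0.07 ± 0.04, with a 95% interval from -0.15 to 0.01 (edgeR adjusted p = 0.121). It was called lower with sequencing lane as a term (-0.08, edgeR adjusted p = 0.0456) and without tunicamycin replicate 4 (-0.09, edgeR adjusted p = 0.0442).

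Ccpg1 (ENSMUSG00000034563, chromosome 9, 72985429 to 73016340, forward strand) encodes a receptor that binds both ATG8 proteins and the autophagy scaffold Rb1cc1. It was counted 34 to 63 times per library with tunicamycin and 39 to 49 times with DMSO, or 2.02 ± 0.311 CPM with tunicamycin and 1.88 ± 0.224 CPM with DMSO. This gave a log2 fold change of 0.10 ± 0.15, with a 95% interval from -0.20 to 0.41 (edgeR adjusted p = 0.551). In the annotation used here, 6 of its 2460 coding bases lie in no other gene: the gene model Gm44503, on the same strand, covers 98.3% of the coding bases, and Pigb, on the opposite strand, covers 19.2%. Gm44503 had 0 counts in all 10 libraries. How reads on more than 1 gene were treated is not given in the sources used here, and the library kit does not mark strand. The level and the change of Ccpg1 are therefore uncertain, and whether its transcript was induced was not tested by these counts.

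In CPM, both reticulons were lower by a small amount in every tunicamycin library than in every DMSO library. Rtn3 (ENSMUSG00000024758, chromosome 19, 7425901 to 7483281, reverse strand) had 1237, 1256 and 1302 CPM (lowest, median, highest) with tunicamycin, and 1550, 1455, 1501 and 1470 CPM with DMSO. The groups did not overlap. The log2 fold change was -0.25 ± 0.03, or 0.84 of the DMSO level (edgeR adjusted p = 6.76e-08), and it was -0.27, -0.27 and -0.20 within lanes 1, 2 and 3. Counts per gene do not separate the long isoform, the one described as a receptor, from the short ones.

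Rtn4 (ENSMUSG00000020458, chromosome 11, 29692947 to 29744331, forward strand) encodes Nogo, whose longest form inhibits axon growth when it is displayed on myelin. It had 1014, 1053 and 1079 CPM (lowest, median, highest) with tunicamycin, and 1179, 1158, 1136 and 1171 CPM with DMSO. In CPM the highest tunicamycin library was below the lowest DMSO library. In TPM the groups overlapped, at 622 to 666 with tunicamycin and 645 to 676 with DMSO. Rtn4 fell by 0.15 on the log2 scale (SE 0.03, edgeR adjusted p = 7.69e-05), and by 0.11, 0.16 and 0.16 within lanes 1, 2 and 3. Lane 1 by itself did not pass (edgeR adjusted p = 0.0773). In either direction, 69.4% of all tested genes changed more. Exons of the opposite-strand gene Eml6 overlap 18.4% of the exonic bases of Rtn4 and none of its coding bases, so the count may hold some reads of Eml6, which rose (log2 0.13 ± 0.05, edgeR adjusted p = 0.015). The ratio of Rtn3 to Rtn4 was 0.932 times as high with tunicamycin as with DMSO, a log2 difference of -0.10 (exact permutation p = 0.00952, adjusted 0.0111). The other reticulons fell as well. Rtn1, the neuronal reticulon, had a log2 fold change of -0.22 and Rtn2 one of -0.17, and Rtn3 supplied 35.3% of the reticulon TPM with tunicamycin and 36.1% with DMSO, and Rtn4 21.1% with tunicamycin and 20.2% with DMSO.

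The atlastins moved in different directions. Atl1 (ENSMUSG00000021066, chromosome 12, 69892614 to 69966417, forward strand) encodes the atlastin most abundant in brain neurons. It had 87.2, 89.7 and 96.1 CPM (lowest, median, highest) with tunicamycin, and 131, 133, 139 and 141 CPM with DMSO. All tunicamycin libraries were far below all DMSO libraries. Its log2 fold change was -0.60 ± 0.04, with a 95% interval from -0.67 to -0.52 (edgeR adjusted p = 3.22e-12), and it was -0.55, -0.68 and -0.59 within lanes 1, 2 and 3. Other genes overlap 21.5% of its exonic bases and none of its coding bases. The largest overlaps on the opposite strand are Sav1, over 14.6% of the exonic bases, which fell (log2 -0.26), and Map4k5, over 5.97%, which rose (log2 0.33). The count of Atl1 may hold some reads of these genes, so the size of its change is uncertain to that extent.

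Atl2 (ENSMUSG00000059811, chromosome 17, 79848390 to 79896123, reverse strand) and Atl3 (ENSMUSG00000024759, chromosome 19, 7494040 to 7539674, forward strand) encode the atlastins expressed in most tissues. Atl2 had 79.9, 82.5 and 86.3 CPM (lowest, median, highest) with tunicamycin, and 79.6, 74.8, 74.7 and 74.5 CPM with DMSO. The gap between the groups was narrow, and DMSO replicate 1 was closest to the tunicamycin libraries. Atl2 rose by a log2 value of 0.12 ± 0.03 (edgeR adjusted p = 0.00502). It was 0.14, 0.13 and 0.12 within lanes 1, 2 and 3, and no lane passed alone (edgeR adjusted p = 0.0975 in lane 1). Under upper-quartile scaling it was 0.00 and not called (edgeR adjusted p = 0.957). That scaling placed the median of all genes at -0.13.

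Atl3, which was also described as a receptor for ER tubules in human cells, had 39.7, 41.2 and 46.5 CPM (lowest, median, highest) with tunicamycin, and 47.1, 52.8, 47.7 and 47.5 CPM with DMSO. In CPM its highest tunicamycin library was just below its lowest DMSO library. In TPM the groups overlapped, at 16.7 to 19.9 with tunicamycin and 18.6 to 21.1 with DMSO. Its log2 fold change was -0.23 ± 0.05 (edgeR adjusted p = 0.000168), and -0.17, -0.29 and -0.21 within lanes 1, 2 and 3. Lane 1 by itself did not pass (edgeR adjusted p = 0.0954).

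Of the 7 ratios tested, that of Atl1 to Atl2 changed most. Its log2 value averaged 0.13 with tunicamycin and 0.84 with DMSO, a difference of -0.71, so that the ratio was 0.609 times as high with tunicamycin (exact permutation p = 0.00476, adjusted 0.00667). The ratio of Atl1 to Atl3 was 0.777 times as high and that of Atl2 to Atl3 was 1.28 times as high with tunicamycin, with the same p. For these 3 pairs the groups did not overlap, and the adjusted p was 0.0259 for each when libraries were exchanged only within lanes (exact permutation). By TPM, Atl1 supplied 44.0% ± 1.49 of the atlastin transcripts with tunicamycin and 54.2% ± 1.38 with DMSO, and Atl2 supplied 37.6% ± 1.12 with tunicamycin and 28.2% ± 1.13 with DMSO. Atl3 supplied 18.4% ± 0.83 with tunicamycin and 17.6% ± 0.986 with DMSO.

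**Figure D3:**
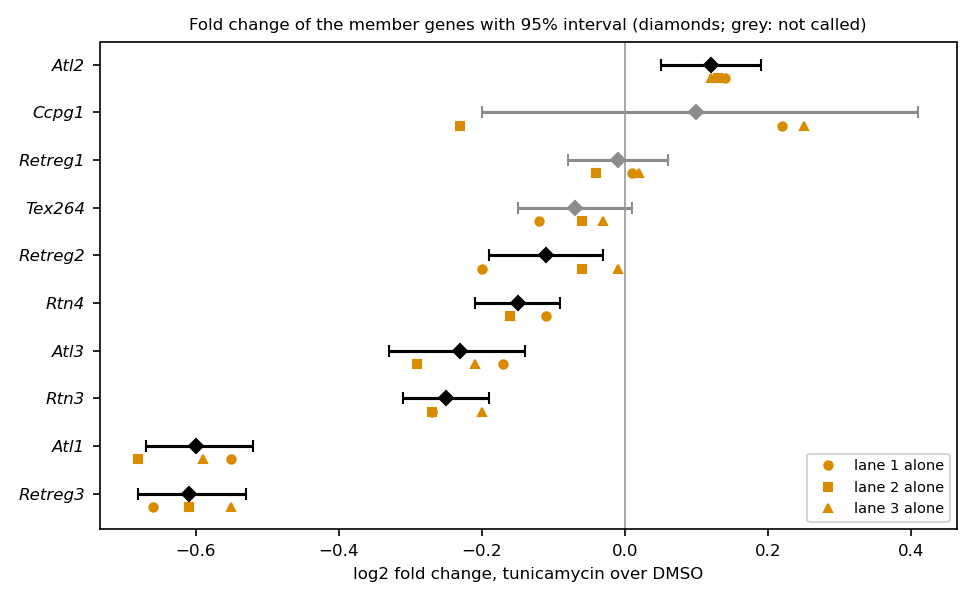
Log2 fold change of each of the 10 genes, tunicamycin over DMSO, as the edgeR estimate with its 95% interval (diamonds, grey where not called) and as the estimates within each of the 3 sequencing lanes (orange symbols). Lanes are a reading of the library names that was not checked. By it, DMSO replicate 3 is the only DMSO library of lane 2, and DMSO replicate 4 that of lane 3. Retreg3 (-0.61) and Atl1 (-0.60) stand apart on the left in every lane, and Atl2 (0.12, and 0.00 under upper-quartile scaling) is the called gene to the right of 0.

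Neuronal and astrocyte markers moved with these falls. Of the neuronal markers, 8 of 9 were lower with tunicamycin (median log2 -0.20), against 32.5% of all tested genes, and Rbfox3 was not called (log2 0.07). Of the astrocyte markers, 8 of 8 were lower, against the same 32.5%, with a median of -0.64. Summed markers of microglia lay at 11.5 to 14.1 CPM with tunicamycin and 15.5 to 19.7 CPM with DMSO, those of the oligodendrocyte lineage at 109 to 134 CPM with tunicamycin and 171 to 221 CPM with DMSO, and those of proliferating cells at 54.1 to 64.1 CPM with tunicamycin and 85.7 to 105 CPM with DMSO. Called lower, against 32.5% of all tested genes, were 5 of the 7 microglia markers (Tyrobp, C1qa, C1qb, C1qc and Cx3cr1) and all 5 proliferation markers. Those 5 microglia markers averaged only 0.373 to 0.949 CPM with tunicamycin. The better counted Csf1r (3.1 CPM, log2 -0.10) and Aif1 (6.17 CPM, log2 -0.00) were not called. With a filter of at least 1 CPM on average, 3 microglia markers were called lower. Of the 7 tested oligodendrocyte-lineage markers, Pdgfra, Cspg4 and Olig1 were called lower and Mog higher. The part of these cells in the changes of the 10 genes was not tested.

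Promoters are shown for Retreg3 and Atl1, which fell most, for Atl2, which rose on the main scale, for Retreg2, which holds a motif searched for, and for Hspa5, which carries a known ER stress motif and rose 5.2-fold. The sequences are the 250 bases before the RefSeq start (GRCm38.p6), 5′ to 3′ on the strand of the gene. They are Retreg3 (chr11:101119842-101120091, reverse strand), Atl1 (chr12:69892855-69893104, forward), Atl2 (chr17:79896124-79896373, reverse), Retreg2 (chr1:75142536-75142785, forward) and Hspa5 (chr2:34771840-34772089, forward). Capitals mark a motif found, the ER stress response element with its 9-base gap in Hspa5 and the letters TCACGTGA in Retreg2. The shorter letters TGACGTG, also searched for and present in Retreg2 and Hspa5, are not marked.
Retreg3: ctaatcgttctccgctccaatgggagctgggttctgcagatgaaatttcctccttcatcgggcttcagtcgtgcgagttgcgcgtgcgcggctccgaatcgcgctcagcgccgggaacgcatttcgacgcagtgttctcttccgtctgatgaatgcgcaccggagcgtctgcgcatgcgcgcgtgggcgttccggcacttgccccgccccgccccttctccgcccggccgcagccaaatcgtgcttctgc
Atl1: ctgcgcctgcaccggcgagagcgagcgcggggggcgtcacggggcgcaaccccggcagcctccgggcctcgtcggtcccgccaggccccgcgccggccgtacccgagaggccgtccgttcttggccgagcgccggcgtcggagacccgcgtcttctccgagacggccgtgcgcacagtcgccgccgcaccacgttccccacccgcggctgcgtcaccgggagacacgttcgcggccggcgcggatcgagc
Atl2: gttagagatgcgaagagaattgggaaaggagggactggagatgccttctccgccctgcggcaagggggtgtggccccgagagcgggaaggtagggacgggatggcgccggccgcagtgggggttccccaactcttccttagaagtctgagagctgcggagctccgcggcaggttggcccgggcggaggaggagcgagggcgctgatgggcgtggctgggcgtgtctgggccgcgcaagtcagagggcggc
Retreg2: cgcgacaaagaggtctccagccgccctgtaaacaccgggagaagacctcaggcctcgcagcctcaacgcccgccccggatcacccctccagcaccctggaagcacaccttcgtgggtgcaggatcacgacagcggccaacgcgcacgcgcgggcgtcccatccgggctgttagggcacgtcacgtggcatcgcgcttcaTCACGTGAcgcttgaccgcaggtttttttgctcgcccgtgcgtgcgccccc
Hspa5: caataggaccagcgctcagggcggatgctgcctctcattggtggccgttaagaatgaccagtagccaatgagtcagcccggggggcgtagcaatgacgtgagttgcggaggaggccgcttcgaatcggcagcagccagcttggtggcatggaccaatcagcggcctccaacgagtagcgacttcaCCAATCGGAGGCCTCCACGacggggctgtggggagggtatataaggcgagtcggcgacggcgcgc

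The 3 motifs of the ER stress response were rare among all promoters, and none was found in a promoter of the 10 genes. The window searched ran from 250 bases before to 50 bases after the start, on both strands, in 32851 RefSeq promoters, of which 16 belong to the 10 genes. The letters TGATGCAA, an element read by Atf4 and Ddit3, were in 0.895% of all promoters and in none of the 16. Of the 5 promoters of the ER stress reference genes, 1 held them, that of Herpud1. The letters TGACGTGG, read by Xbp1 and Atf6, were in 0.676% of all promoters, in 0 of the 5 reference promoters and in none of the 16. CCAAT followed after 9 bases by CCACG, the ER stress response element, was in 0.119% of all promoters and in none of the 16. Of the 5 reference promoters, only that of Hspa5 held it, starting 65 bases before the start of transcription. Motifs this rare would seldom be met in 16 promoters of any genes, so their absence does not set the 10 genes apart. The letters TCACGTGA, the core of the element read by the lysosomal regulator Tfeb, were in 0.974% of all promoters and in that of Retreg2, at 51 bases before the start. The shorter letters TGACGTG, which lie within TGACGTGG, were in 2.01% of all promoters, among them those of Retreg2 and Hspa5. A match of letters is a description of the sequence and not a site of binding.

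Around the 10 genes, the partners of ER-phagy moved in both directions. Of 17 other ER-phagy receptors and adaptors, 10 rose, 3 fell and 4 did not pass, against 31.8% higher and 32.5% lower among all tested genes. Their median log2 fold change was 0.12, against -0.02 over all tested genes. Under upper-quartile scaling the counts were 8 higher and 6 lower and the median was 0.01. Among all genes, that scaling called 3632 higher and 6934 lower, with a median of -0.13. Ufl1, the ligase that attaches the ubiquitin-like modifier Ufm1 to proteins at the ER, had 60.9 ± 2.2 CPM with tunicamycin and 37.6 ± 0.898 CPM with DMSO (log2 0.69, edgeR adjusted p = 1.16e-12). Of the same modification, Cdk5rap3 (log2 0.40), Ddrgk1 (0.28), Ufm1 (0.21) and Ufc1 (0.11, and -0.01 under upper-quartile scaling) also rose. This grouping was made after the values were seen. Rb1cc1, the scaffold bound by Ccpg1, had 139 ± 8.16 CPM with tunicamycin and 97.3 ± 7.87 CPM with DMSO (log2 0.51). The 3 that fell were Calcoco1 (log2 -0.43), a soluble ER-phagy receptor, Pgrmc1 (-0.20), an ER membrane protein reported to act with Rtn3, and Camk2b (-0.20), a kinase reported to phosphorylate Retreg1. Sec24c (log2 0.39), a coat protein, the cargo receptor Sqstm1 (0.25) and Vapa (0.12), an ER contact protein, rose as well. Mrnip overlaps 17.3% of the exonic bases of Sqstm1. The 4 that did not pass were Sec62 (log2 -0.08), Csnk2b (-0.08), Trim13 (-0.03) and Vapb (0.00, and -0.11 under upper-quartile scaling). Another gene overlaps 11.7% of the exonic bases of Sec62, and 14.2% of the 50-base words of Trim13 occur in another gene.

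All 5 measured genes of the ATG8 family, the proteins that the receptors bind on the autophagosome, were lower with tunicamycin, against 32.5% of all tested genes, with a median of -0.23. Gabarap had 146 ± 5.69 CPM with tunicamycin and 187 ± 8.47 CPM with DMSO (log2 -0.37, edgeR adjusted p = 6.98e-09). Log2 fold changes of Gabarapl2, Gabarapl1, Map1lc3b and Map1lc3a were -0.38, -0.23, -0.14 and -0.13. Map1lc3a was at 0.00 within lane 3. Another gene overlaps 28.3% of the exonic bases of Gabarapl1, and 12.2% of the 50-base words of Gabarapl2 occur in other genes, so both are uncertain.

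Of 23 other genes that shape the ER, 7 rose, 10 fell and 6 did not pass, against 31.8% higher and 32.5% lower among all tested genes. The median was -0.06. Under upper-quartile scaling 5 rose and 13 fell, with a median of -0.17. That scaling shifted all genes downward as well, with 3632 called higher, 6934 called lower and a median of -0.13. Arl6ip1, a tubule-shaping hairpin protein, had 313 ± 10.6 CPM with tunicamycin and 406 ± 15.8 CPM with DMSO (log2 -0.38, edgeR adjusted p = 7.15e-10). Rrbp1, the ribosome-binding protein of ER sheets, had 122 ± 4.7 CPM with tunicamycin and 83.1 ± 2.65 CPM with DMSO (log2 0.55, edgeR adjusted p = 9.22e-12). Rab3gap2, which activates the ER-tubule GTPase Rab18, had a log2 fold change of 0.40, and Iars2 overlaps 19.3% of its exonic bases.

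Of 10 tested genes of the Nogo pathway, the receptors and partners of Rtn4, 5 fell, 1 rose and 4 did not pass, against 32.5% lower and 31.8% higher among all tested genes. The median was -0.15, and Mag was too low to test. Rtn4r, the Nogo receptor, had 29.1 ± 1.34 CPM with tunicamycin and 41.7 ± 3.9 CPM with DMSO (log2 -0.52, edgeR adjusted p = 1.57e-08). Its co-receptor Lingo1 had 204 ± 11.2 CPM with tunicamycin and 274 ± 8.64 CPM with DMSO (log2 -0.43, edgeR adjusted p = 1.59e-09). Omg (log2 -0.46), another ligand of that receptor, the receptor paralog Rtn4rl1 (-0.23) and the protease Bace1 (-0.16), whose activity Rtn3 and Rtn4 can restrain, fell as well. Another gene overlaps 32.5% of the exonic bases of Bace1. Tnfrsf19, a co-receptor that can replace Ngfr, rose (log2 0.24).

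**Figure D4:**
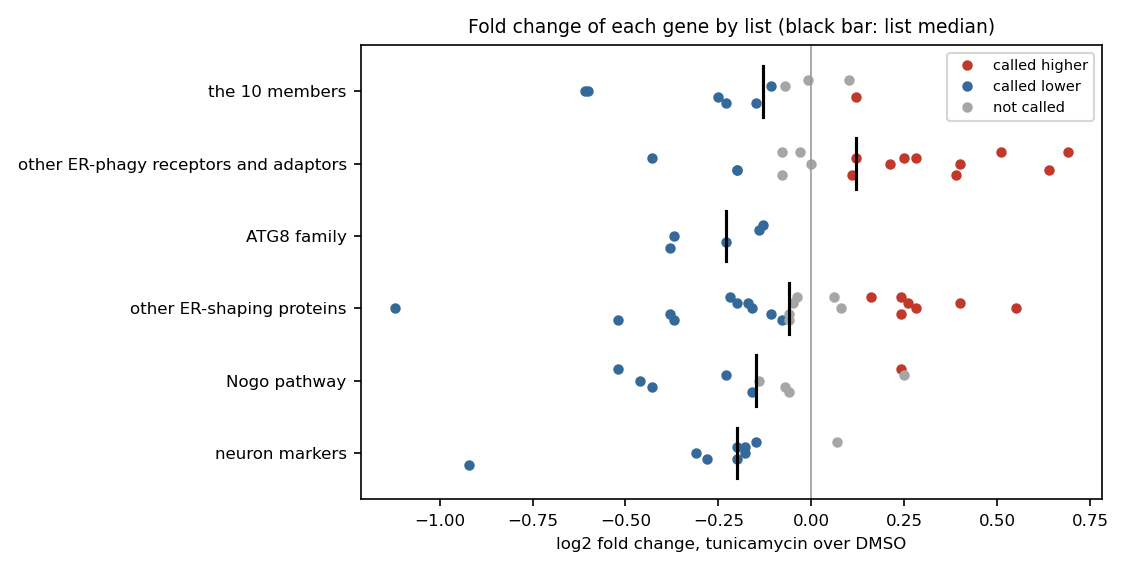
Log2 fold change of every tested gene, tunicamycin over DMSO, in the 10 genes described here, in the other ER-phagy genes, the ATG8 family, the other ER-shaping genes and the Nogo pathway, and in the neuronal markers, with a black line at each list's median and colours for called higher, called lower and not called. The ATG8 family lies wholly below 0 with a median of -0.23, and the other lists shown fall on both sides.

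Across libraries, the level of Retreg3 ran closest to those of Pygb (Pearson r = 0.997), Cenpb (0.996) and Wnt7a (0.996), whose log2 fold changes were -0.81, -0.50 and -1.75. The level of Atl2 ran closest to those of Eif2b1 (0.979), Heatr3 (0.958) and Alyref (0.954), whose log2 fold changes were 0.14, 0.28 and 0.06. These are correlations of log2 CPM over the 10 libraries, which share the treatment, and are given as a description. The authors' deposited table of changed genes lists the same 7 of the 10 genes, with log2 fold changes of -0.61 for Retreg3, -0.60 for Atl1, -0.26 for Rtn3, -0.24 for Atl3, -0.16 for Rtn4, -0.12 for Retreg2 and 0.11 for Atl2.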

How the data were processed

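Polyadenylated RNA of cultured hippocampal neurons was sequenced as 50 bp single ends after a TruSeq RNA v2 preparation, which does not mark strand, per the labels' protocols. Per the submitters' processing notes, reads were handled with build mm10 and with DESeq2, Subread 1.5.1, featureCounts, STAR 2.5.2b and FastQC 0.11.5, whose roles are not stated. Which annotation was used and how reads on several genes were handled is not given. The authors deposited whole-number counts per gene for each library, without normalization. They also deposited a table of changed genes with log2 fold changes, p-values and a normalized signal per library, of which the log2 fold changes are quoted.

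Names, positions, exon lengths for TPM and overlaps came from GENCODE M21 (GRCm38), which matched 48349 of 48709 identifiers. The main test was edgeR 4.0.16 in R 4.3.3 (quasi-likelihood, TMM, filterByExpr, two-sided) on all libraries, with Benjamini-Hochberg adjustment over 15660 genes and a threshold of 0.05. All 10 genes described passed the filter on low counts. CPM uses the library total. Ratios of gene pairs used counts plus 0.5 and an exact permutation test over 210 splits. Separate cultures are not stated for the libraries, so a p-value speaks of the spread among libraries, possibly technical. The common biological coefficient of variation was 0.049. Lanes are a reading of the library names, which was not checked against sequencing records. Replicate numbers did not pair the libraries.

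The 10 genes, the lists and the tests were chosen with earlier results of these data known. Named by rule were the 10 genes, the ER stress reference genes, the 2 rising and 2 falling members of each list with the smallest p, every member where 5 or fewer moved one way, and the 3 genes closest in pattern to Retreg3 and to Atl2. Others were named after their values were seen, and some genes the rule names are not reported here. Overlap over 10% of exonic bases, or of 50-base words shared with other genes, is stated for the 10 genes and the named members of the lists. Some markers that were counted but not named overlap other genes as well. These are Nefl (32.8% of exonic bases), Nefm (19.2%), Csf1r (15.1%) and Aldh1l1 (13.4%), and Pcna shares 19.1% of its words. Promoter sequences are from RefSeq (GRCm38.p6). The edgeR step was tested on simulated data with known changes.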

Additional observations from a re-analysis of the deposited data

Results flagged for a closer look

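In 5 of 34 groups of values examined, 1 library lay far from the others of its group relative to the group's range, where chance gives about 1 in 20 groups. Atl3 had 46.5 CPM in tunicamycin replicate 1, against 39.7 to 42.1 CPM in the other tunicamycin libraries. Atl3 also had 52.8 CPM in DMSO replicate 2, against 47.1 to 47.7 CPM in the other DMSO libraries. Atl2 had 79.6 CPM in DMSO replicate 1, and 74.5 to 74.8 CPM in the others. The log2 ratio of Retreg1 to Retreg2 was -1.86 in DMSO replicate 1, and -1.76 to -1.75 in the others. Ccpg1 had 2.21 CPM in DMSO replicate 3, and 1.73 to 1.81 CPM in the others.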

How the results depend on the processing

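Retreg3, Rtn3 and Atl1 kept their direction and their call under all 11 other settings and with any 1 library left out. Their log2 fold changes ranged from -0.72 to -0.55 for Retreg3, -0.71 to -0.55 for Atl1 and -0.37 to -0.20 for Rtn3 under the other settings. With upper-quartile scaling the all-gene median was -0.13 on the log2 scale, against -0.02 in the main test, and there were 3632 genes higher and 6934 lower, against 4983 higher and 5082 lower. Under it 8 of the 10 genes were called lower and 0 higher: Retreg1 (-0.13, edgeR adjusted p = 0.00263) and Tex264 (-0.18, edgeR adjusted p = 0.000262) were then called lower, and Atl2 was not called. Vapb was at -0.11 and Ufc1 at -0.01 under that scaling, and Map1lc3a was at 0.00 in lane 3 alone, each on the other side of 0 from its main value. The fit of lane 1 alone, which holds fewer libraries, called 4 of the 10 genes and 0 of them higher. It called 7634 of all genes, of which 3958 were higher. DMSO replicates 3 and 4 are the only DMSO libraries of lanes 2 and 3, so counts of calls are given for lane 1. With any 1 library left out, 6 to 8 of the 10 genes were called, and 1 of them higher in every case. Of all genes, 9593 to 9935 were then called, and 4796 to 4963 were called higher. The difference in the log2 ratio of Retreg1 to Retreg2 then ranged from 0.07 to 0.11, and it was 0.10 in the permutation within lanes, where it was no longer past the threshold. The cause was not tested.

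Replicate numbers gave no sign of pairing, since libraries with the same number deviated with correlations of -0.22 to 0.01. With replicates 1 to 4 as a block, edgeR called 8815 genes and the same count of 7 of the 10 genes. In 4 pairs the smallest exact p is 0.125, so no ratio could pass. The differences in log2 ratio under the replicate block were 0.12 for Retreg1 to Retreg2, 0.63 for Retreg1 to Retreg3, 0.51 for Retreg2 to Retreg3, -0.11 for Rtn3 to Rtn4, -0.75 for Atl1 to Atl2, -0.39 for Atl1 to Atl3 and 0.36 for Atl2 to Atl3. Ccpg1 had 34 to 63 counts per library, and its overlap with other genes leaves its change uncertain.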
